A study of Rattus norvegicus with 9 samples.

Results

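Fatty acid transport and binding proteins were followed in rat peripheral blood mononuclear cells (PBMC), the lymphocytes and monocytes that a density gradient separates from blood. The set held 10 genes: the fatty acid transport proteins Slc27a1, Slc27a2, Slc27a3, Slc27a4 and Slc27a5, the membrane receptor Cd36, the fatty acid binding proteins Fabp1, Fabp4 and Fabp5, and the acyl-CoA binding protein Dbi. Every probe that carries the name or a RefSeq transcript of one of them was taken, which gave 16 of the 41012 probes on the array, for 10 of 35666 genes or transcripts by name. Of the genes, 6 had 2 probes and 4 had 1 probe. The set was chosen by the difference between the diets, because Slc27a2 was the gene furthest apart between them in these same arrays. Differences between the diets are therefore given here as a description.

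The animals were male Wistar rats with no genetic alteration named, entered into the diets at 2 months of age, kept on them for 4 months and bled in the fed state at 6 months. The cafeteria group (n = 5) received a fat-rich, high-calorie cafeteria diet beside standard chow, and the control group (n = 4) received standard chow alone. The submitters dropped 1 further control whose RNA was scarce. Each animal had 1 array, named by its group and the number in its label, on which its Cy5-labelled RNA was read against a Cy3-labelled pool of RNA from all groups, in the same dye orientation throughout. The labels do not list the animals in the pool, which may include some not analysed here, so a log ratio of 0 is the level of that pool and not of the 9 animals' mean.

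Long-chain fatty acids reach cells bound to albumin or released from lipoproteins, cross the plasma membrane with the help of proteins such as CD36 and the SLC27 family, and are trapped inside as acyl-CoA esters. The SLC27 proteins are membrane-bound enzymes that join coenzyme A to fatty acids, whereas the small binding proteins of the FABP family carry unesterified fatty acids through the cytosol and DBI carries acyl-CoA. Several of these genes are textbook targets of the peroxisome proliferator-activated receptors (PPARs), nuclear receptors that bind fatty acids.

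On the 9 arrays, 58.8% to 66.7% of the 43379 spots that are not control spots had Cy5 well above background. The slides numbered 7, and 2 of them held arrays of both groups: slide 3 held cafeteria 1 and control 1, and slide 5 held cafeteria 10 and control 13. The background correction, which models background and signal together, stood apart on 2 arrays. Its fitted background SD in Cy5 was 946 intensity units on cafeteria 4 and 997 on control 4, against 1.2 to 66.3 on the other arrays. Dim spots on those arrays are thereby drawn towards a log ratio of 0, and values with plain subtraction of the local background are given where this matters. T cell, B cell, monocyte and platelet marker lists had no gene below background on all arrays, so the labelled cell type carried its defining transcripts, with platelet and erythroid RNA beside it.

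Promoter sequences of the PPAR-linked members Slc27a2 and Fabp1 are shown because both hold the nuclear receptor hexamer AGGTCA, read here on the opposite strand as TGACCT and set in capitals. They are RefSeq sequences of the GRCr8 build, 250 bases before to 50 bases after the gene start, on the plus strand. The first lies at chr3:134257851-134258150 and the second at chr4:104749090-104749389.
Slc27a2: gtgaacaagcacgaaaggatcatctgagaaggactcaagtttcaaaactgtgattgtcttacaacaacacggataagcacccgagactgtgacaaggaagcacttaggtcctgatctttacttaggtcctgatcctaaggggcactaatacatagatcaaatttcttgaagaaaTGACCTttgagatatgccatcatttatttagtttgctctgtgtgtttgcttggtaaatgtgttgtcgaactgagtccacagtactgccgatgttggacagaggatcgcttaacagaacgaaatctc
Fabp1: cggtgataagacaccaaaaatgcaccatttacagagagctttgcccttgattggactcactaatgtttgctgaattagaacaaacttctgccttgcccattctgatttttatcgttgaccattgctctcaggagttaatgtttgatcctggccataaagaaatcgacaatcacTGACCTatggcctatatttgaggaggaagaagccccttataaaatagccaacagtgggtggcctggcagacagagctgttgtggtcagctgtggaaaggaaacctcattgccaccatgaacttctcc
The match began 76 bases before the start in Slc27a2 and 77 bases before it in Fabp1. Promoters were in the sequence table for 8 of the 10 members, and 3 of the 8 held the hexamer on either strand, Slc27a1 being the other one. Over the whole table, 5415 of 33469 promoters (16.2%) held it. The direct repeat of this hexamer with a spacer of 1 base (AGGTCANAGGTCA) was in none of the 8 members and in 18 promoters (0.1%) of the table. Only the sequences as written were counted, so a repeat with a changed base was not. A match describes the sequence alone, and whether any of these stretches is bound was not tested.

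Slc27a2, a very long-chain acyl-CoA synthetase and fatty acid transporter best known from liver and kidney, was high in all 5 cafeteria animals and in 1 control, and low in the other 3 controls. Its first probe, at chr3:114114177-114114236 of the rn4 build that the files use, had Cy5 signals of 45754, 29420, 52841, 23917 and 34686 intensity units in cafeteria 1, 4, 7, 10 and 13. In control 1, 4, 7 and 13 the signals were 15636, 312, 576 and 547 units. Control 1 thus stood far nearer to the cafeteria animals than to the other controls, and the Cy5 local background of 48.5 to 62.0 units lay below all 9 signals. The files place each probe on the genome but name neither exon nor untranslated region.

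The pooled Cy3 channel of the same spots stayed between 6314 and 8413 units, so the spread lay in the animals' own channel. On the log2 scale, after background correction and quantile normalization of each channel, the first probe ranged over 6.67 in Cy5 and over 0.32 in Cy3 across the 9 arrays. The second probe, at chr3:114113856-114113915, had Cy5 signals of 10328, 7181, 14489, 6468 and 8445 units in cafeteria 1, 4, 7, 10 and 13. It had 3468, 135, 163 and 207 units in control 1, 4, 7 and 13. The order of the groups was that of the first probe, with control 1 again between the cafeteria animals and the other controls.

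**Figure D1:**
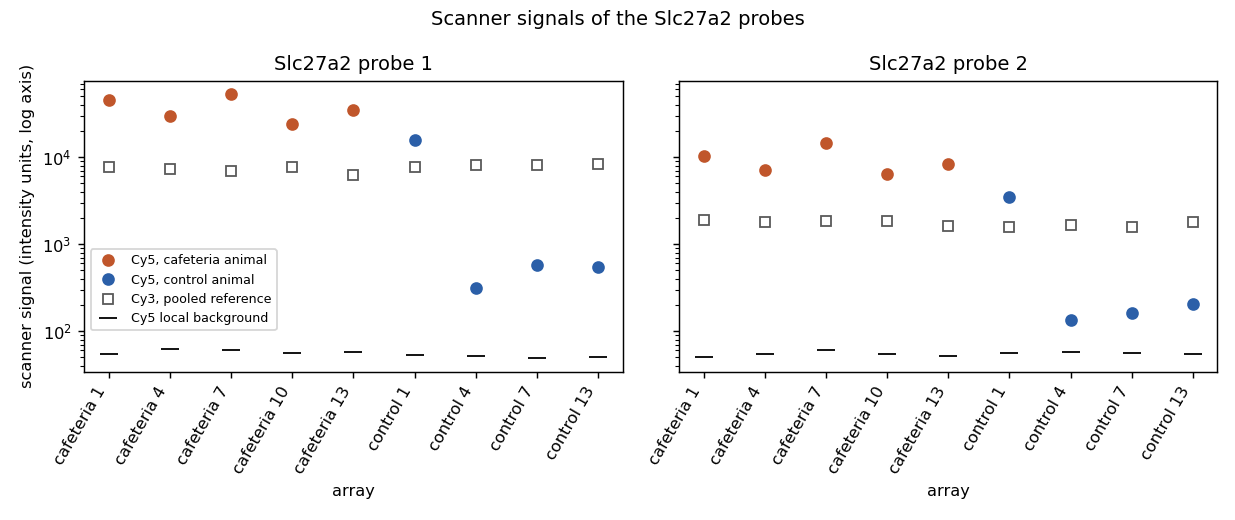
Scanner signals of the 2 Slc27a2 probes on each array (intensity units, log axis): filled points are Cy5 of 1 animal, open squares the Cy3 reference pool and dashes the Cy5 local background. The 5 cafeteria animals sit between 23917 and 52841 units on the first probe, control 1 at 15636 and the other controls between 312 and 576, while the reference is level.

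As a log2 ratio to the reference pool, the first probe was at 0.97, 0.48, 1.38, 0.098 and 0.50 in cafeteria 1, 4, 7, 10 and 13. It was at -0.32, -4.14, -4.76 and -4.85 in control 1, 4, 7 and 13. The groups did not overlap, but the gap between the lowest cafeteria animal and control 1 was far smaller than the spread among controls. The second probe was at 1.098, 0.53, 1.55, 0.40 and 0.62 in the cafeteria animals and at -0.097, -1.83, -3.78 and -3.53 in the controls, in the same order of arrays. The 2 probes differed by a median of 0.22 per array and by at most 2.31, on control 4, where the modelled background raised the dim spot: its 78.1 units above local background became 740.8 after correction.

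With plain subtraction of the background, control 4 came to -5.84 on the first probe and -4.64 on the second, below control 7 (-4.88 and -4.13) and control 13 (-5.18 and -4.24). The low level of control 4 on these probes is therefore understated by the values above. Control 1 stayed at -0.32 on the first probe, far above these 3 controls.

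The mean log2 ratio of the first probe was 0.685 ± 0.495 in cafeteria animals (SD, n = 5) and -3.52 ± 2.16 in controls (SD, n = 4), a difference of 4.20 (SE 0.82, 18.4-fold). The second probe averaged 0.84 ± 0.48 in cafeteria animals (SD, n = 5) and -2.31 ± 1.71 in controls (SD, n = 4), a difference of 3.15 (SE 0.66, 8.86-fold). By size of difference they ranked 1 and 2 of the 25805 probes that passed the filter on dim probes. Control 1 sets how large these values are: without it the differences were 5.27 (SE 0.28) and 3.885 (SE 0.44). Limma called the first probe only with control 1 left out. As the gene was chosen for its difference in these same arrays, nothing is read from that call. The labels give nothing that sets control 1 apart from the other controls, and whether it was fed, handled or labelled like them was not tested, so values with and without it are both given.

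With plain subtraction the differences were 4.74 (SE 0.93) and 4.14 (SE 0.79) over all 9 arrays, and without control 1 they were 5.99 (SE 0.29) and 5.20 (SE 0.25). Both were called without control 1 only, and nothing is read from these calls either, for the same reason. Within slide 3, cafeteria 1 exceeded control 1 by 1.28 on the first probe and 1.20 on the second. Within slide 5, cafeteria 10 exceeded control 13 by 4.95 and 3.93. As the groups do not overlap, these signs were fixed by the choice of the gene.

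The spread among controls was itself unusual. The control SD of the first probe was at the 99.98th percentile of all probes tested and that of the second at the 99.96th, where the median control SD was 0.121. A control SD above 2 was found for 7 probes in all, and a log ratio range over 4 across the arrays for 16. Among cafeteria animals the SD of the 2 probes lay at the 97.8th and 97.5th percentiles, against a median cafeteria SD of 0.128.

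In a bulk sample, fewer cells that carry a transcript and less of it per cell cannot be told apart. Markers of tissues known for Slc27a2 were therefore set beside it. Of 10 hepatocyte markers, 7 passed the filter, 6 higher and 1 lower in cafeteria animals (median 0.046), with Tat and Cps1 not well above background on any array. Their summed Cy5 signal, after quantile normalization as for all such sums, was 2245 to 3394 units in cafeteria animals and 2557 to 2971 units in controls. Of 10 kidney proximal tubule markers, 4 passed and all 4 were higher (median 0.057), with Slc34a1, Kap and Miox not well above background on any array, and with sums of 2756 to 3423 units in cafeteria animals and 2765 to 2920 units in controls. The mean log2 ratio of the hepatocyte list was -0.04 to 0.189 in cafeteria animals and -0.036 to 0.075 in controls, and that of the kidney list -0.097 to 0.118 in cafeteria animals and -0.283 to -0.03 in controls, with control 1 the lowest array for the kidney list. That place rests on Aqp1, a water channel also carried by red cells, which was at -1.173 in control 1 and differed by 0.485 (SE 0.193), whereas the other 3 genes tested differed by 0.04 to 0.068 and were at -0.046 to 0.112 in control 1. Slc5a2, 1 of these 3, had a second probe that was well above background on 3 arrays and so outside the fit. That probe was at 1.979 in control 1 and at -0.012 to 0.196 on the other arrays.

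Among blood cell markers, erythroid genes had a median difference of 0.46, with 7 of 8 above 0. Their summed signals were 29738 to 45993 units in cafeteria animals and 28812 to 51949 units in controls. The mean log2 ratio of that list was -0.59 to -0.051 in cafeteria animals and -0.76 to -0.31 in controls, where control 1 was at -0.67, among the low arrays. Rhag was the gene below 0 (-0.709, SE 0.528) and, at 2.161 in control 4, raised that array's mean to -0.31. An unadjusted limma p under 0.05 was found for 5 of the 8, beside 4.40% of all probes, and none was called. Groups did not overlap for Alas2 and Ahsp, beside 1.27% of all probes. For Alas2 the gap was smaller than the rounding, with cafeteria 10 and control 1 both at -0.426. Control 1 was the highest control for Hbb, Alas2 and Ahsp and the lowest for Epb42 and Rhag. Cytotoxic T and NK cell genes lay above 0 for 8 of 10 (median 0.318), with summed signals of 219240 to 432877 units in cafeteria animals and 185311 to 239977 units in controls. B cell markers were higher for all 8 tested (median 0.258), with sums of 28910 to 38734 units in cafeteria animals and 23445 to 34310 units in controls. T cell markers were higher for 1 and lower for 8 of 9 (median -0.133), with sums of 200625 to 311109 units in cafeteria animals and 215755 to 312557 units in controls. The part of these cell types in the Slc27a2 values was not tested.

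The probes that lie near Slc27a2 on the chromosome did not share its pattern. The files place 19 other probes within 500 kb on either side, of which 15, for 12 genes or transcripts, passed the filter. Their differences ran from -0.186 to 0.204, with a median of 0.017, 9 of them above 0 and 5 below. The nearest, 5.3 kb away, was Hdc, histidine decarboxylase, at -0.106 (SE 0.148). Its range over the 9 arrays was 0.85, the widest among these neighbours, against 6.23 for the first Slc27a2 probe.

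Farther out, Gabpb1, a subunit of the transcription factor GABP, was at 0.034 (SE 0.064). Usp8, a ubiquitin protease, had 3 probes between -0.066 and 0.017. Trpm7, a cation channel with a kinase domain, was at 0.072 (SE 0.053), Sppl2a, an intramembrane protease, at 0.20 (SE 0.075) and 0.109 (SE 0.078) on its 2 probes, and Atp8b4, a phospholipid flippase on the other side, at 0.007 (SE 0.091). On all 15 of these probes the 9 arrays lay within 0.85 of each other.

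**Figure D2:**
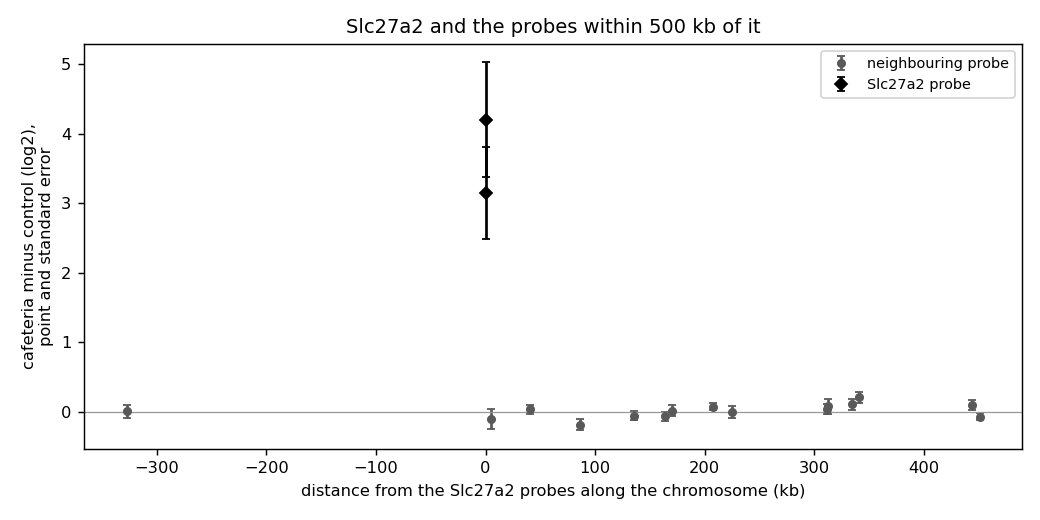
Cafeteria minus control difference (log2, point and standard error) of the Slc27a2 probes (diamonds) and of the 15 tested probes within 500 kb (circles), against distance along the chromosome in kb. The Slc27a2 probes lie at 4.20 and 3.15, and the neighbours between -0.186 and 0.204.

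Genes with a profile like that of Slc27a2 were sought among named probes with a wide range over the arrays. Likeness was the mean absolute difference of standardized log ratios over the 9 arrays, computed for the 118 named probes, of 224, with a range of at least 2. The measure does not depend on the size of the range, so genes outside the 118 can lie nearer. Alas2, an erythroid gene of smaller range, was at -0.426 to -0.067 in cafeteria animals. It was at -0.426 in control 1 and at -1.225 to -0.8 in the other controls. The second Slc27a2 probe was at a distance of 0.13 from the first, and the median of the 118 was 1.26. The nearest of the 118 were Rpl13, a ribosomal protein (0.595), Ldhb, a lactate dehydrogenase subunit (0.636), and Trim25, a ubiquitin ligase (0.726).

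Then came Col16a1, a collagen (0.769), Klre1, a receptor of NK cells (0.797), Cdhr1, a cadherin-related protein (0.801), Add2, an adducin (0.867), and Klrc3, another NK cell receptor (0.872). The groups overlapped for all 8. Trim25 was low on control 13 alone, at -2.84, while its other arrays lay between -0.291 and 0.174. Ldhb was low on control 1, at -1.71, and on cafeteria 4, at -2.19, where Slc27a2 was high. On control 4 and control 7, where Slc27a2 was low, Trim25 was at 0.111 and -0.221, and on control 13 Ldhb was at 0.328. So these profiles departed from that of Slc27a2 on several arrays each.

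The relatives of Slc27a2 in the same family showed no such split. Slc27a1, the member best known from muscle and fat, had a first probe (chr16:18786624-18786683) at 0.10, 0.175, -0.031, -0.235 and -0.356 in cafeteria 1, 4, 7, 10 and 13. In control 1, 4, 7 and 13 it was at -0.458, -0.093, -0.393 and -0.267. The groups overlapped, with cafeteria 13 among the controls and control 4 among the cafeteria animals.

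Its mean was -0.069 ± 0.223 in cafeteria animals (SD, n = 5) and -0.30 ± 0.16 in controls (SD, n = 4), a difference of 0.234 (SE 0.12). The second probe (chr16:18785248-18785799) differed by 0.125 (SE 0.10), and the 2 probes lay within 0.151 of each other on every array. Of the 13 tested probes of the other 9 genes, the first Slc27a1 probe had the highest difference. It came to 0.56 within slide 3 and 0.032 within slide 5.

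Slc27a3, an acyl-CoA synthetase whose transport role is less settled, had a single dim probe (chr2:182645451-182645510) with Cy5 signals of 119 to 179 units in cafeteria animals and 88.8 to 141 units in controls. Its log2 ratio was 0.236 in cafeteria 10, while the other cafeteria animals lay between -0.068 and 0.002 and the controls between -0.262 and 0.028. All cafeteria animals but cafeteria 10 were thus within the range of the controls. The means were 0.025 ± 0.121 in cafeteria animals (SD, n = 5) and -0.076 ± 0.129 in controls (SD, n = 4), a difference of 0.101 (SE 0.083).

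Slc27a4, the transporter needed for the skin barrier and abundant in intestine, was measured by 2 probes that disagreed in sign. The first (chr3:8802408-8802467) was at -0.057, -0.087, -0.009, -0.332 and -0.236 in cafeteria 1, 4, 7, 10 and 13 and at -0.249, -0.066, 0.048 and -0.245 in control 1, 4, 7 and 13. The second (chr3:8799565-8801963) was at -0.148, 0.002, 0.015, -0.020 and -0.215 in the cafeteria animals and at -0.293, -0.029, -0.306 and -0.086 in the controls, in the same order. The probes differed by up to 0.354 on 1 array, more than either group difference.

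The differences were -0.016 (SE 0.090) on the first probe and 0.105 (SE 0.081) on the second, and both groups overlapped on each. The sign of the first turned in 11 of 25 other settings, median centring and slide as a fixed block among them.

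Slc27a5, which joins coenzyme A to bile acids in liver, was near background. Its first probe (chr1:72935145-72935204) was well above background on 4 cafeteria and 2 control arrays, with Cy5 signals of 76.3 to 124.6 units in cafeteria animals and 82.9 to 108.3 units in controls. The log2 ratio averaged 0.040 ± 0.046 in cafeteria animals (SD, n = 5) and 0.018 ± 0.094 in controls (SD, n = 4), a difference of 0.022 (SE 0.060) whose sign turned without control 1. The second probe (chr1:72934477-72934536) was well above background on 1 cafeteria array and on 0 control arrays, and it did not enter the fit. It is the 1 of 16 probes that was not tested.

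Against the 2 Slc27a2 probes at 4.20 and 3.15, the 6 tested probes of its relatives had differences of -0.016 to 0.234. The plot of log ratios by array shows the same contrast in the single values. The SDs of these relatives among controls lay between the 36.4th and 74.1st percentiles of all probes.

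**Figure D3:**
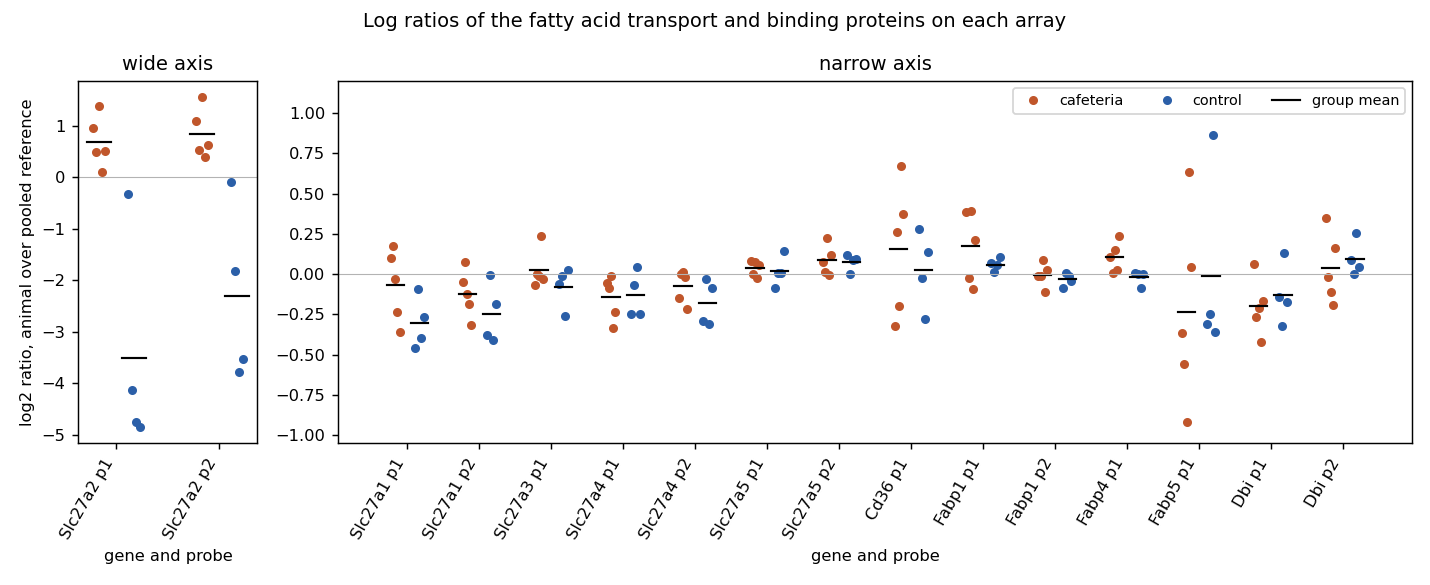
Log2 ratio of animal over reference pool for all 16 probes, 1 point per array, with cafeteria left of control and the group mean as a bar. The Slc27a2 probes need the wide axis on the left, with 3 controls far below the other arrays; on the narrow axis Fabp5 spans 1.78 and Cd36 0.99 across the arrays.

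Cd36, the scavenger receptor that takes up fatty acids and oxidized lipoproteins and is carried by monocytes, platelets and erythroid precursors, differed more between the arrays of a group than between diets. Its probe (chr4:13518295-13519542) was printed 10 times on the array. The log2 ratio was -0.321, 0.262, -0.199, 0.671 and 0.374 in cafeteria 1, 4, 7, 10 and 13 and 0.280, -0.026, -0.275 and 0.138 in control 1, 4, 7 and 13. Cafeteria 10 was highest and cafeteria 1 lowest, so the cafeteria animals enclosed all 4 controls.

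The repeated spots give the spot noise for this gene, but not the error of labelling, hybridization and normalization, which spots of 1 array share. Within an array the SD between spots was 0.018 to 0.055, with 1 of 90 spot values left out, and the standard error of an array's mean was at most 0.018. The SD between arrays, each of 1 animal, was 0.411 in the cafeteria group and 0.238 among controls. The group means were 0.157 in cafeteria animals and 0.029 in controls, a difference of 0.128 (SE 0.20). The pair on slide 3 differed by -0.6 and the pair on slide 5 by 0.533. A fixed block for slide, which rests on those pairs, gave -0.034, and a random block gave 0.122 (SE 0.198).

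Monocyte and platelet markers were both lowest on the arrays where Cd36 was lowest. Over the 10 markers, all tested, the mean log2 ratio was -0.55 in cafeteria 1, -0.421 in cafeteria 7 and -0.203 in control 7, the 3 arrays lowest in Cd36. In cafeteria 4, 10 and 13 it was 0.276, 0.211 and -0.198, the last nearly as low as control 7 although Cd36 was at 0.374 there, and in control 1, 4 and 13 it was 0.222, 0.166 and -0.08. Of these markers, 2 were higher and 8 lower in cafeteria animals (median -0.164), with summed normalized Cy5 of 57537 to 185678 units in cafeteria animals and 76832 to 150335 units in controls.

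Platelet markers, 9 tested and all 9 lower in cafeteria animals (median -0.415), averaged -0.676, -0.127, -0.879, 0.354 and 0.238 in cafeteria 1, 4, 7, 10 and 13 and -0.207, 1.041, -0.419 and 0.177 in control 1, 4, 7 and 13. Cafeteria 7, cafeteria 1 and control 7 were the 3 lowest arrays for this list too, and control 4, where Cd36 was near 0, was the highest. Its summed signals were 563903 to 866004 units in cafeteria animals and 667188 to 1121515 units in controls. No marker of either list was below background on all arrays. The erythroid list went with Cd36 on some arrays only. Its mean log2 ratio was -0.051 in cafeteria 1, its highest array, -0.59 in cafeteria 7 and -0.763 in control 7, its lowest. In control 1 it was -0.673, where Cd36 was at 0.280. The part of these cell types in the Cd36 values was not tested.

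**Figure D4:**
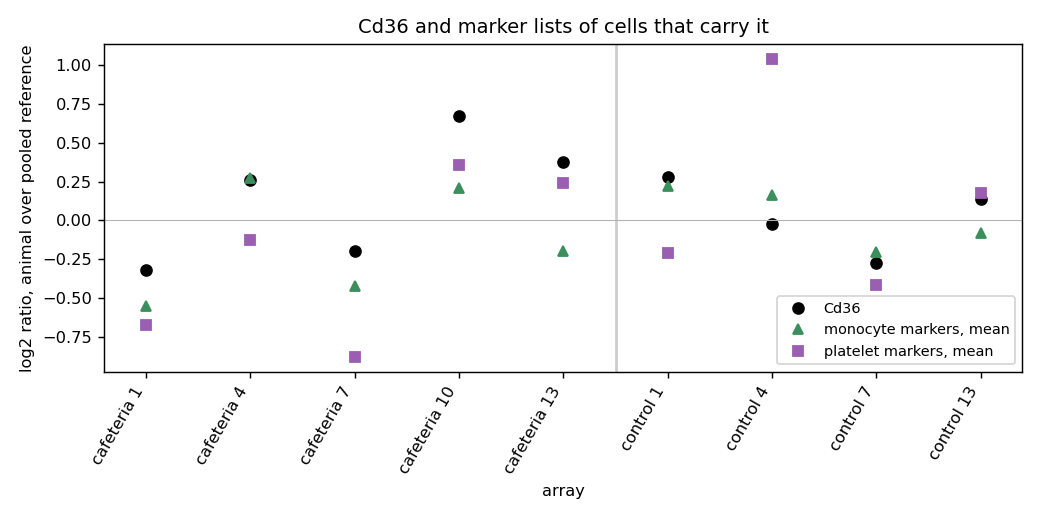
Log2 ratio of animal over reference pool on each array for Cd36 (circles) and the mean of monocyte markers (triangles) and of platelet markers (squares), cafeteria left and control right of the line. Cafeteria 1, cafeteria 7 and control 7 are the lowest 3 arrays for Cd36 and for both marker lists, and platelet markers are highest in control 4, at 1.041.

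The binding proteins came next in the path of a fatty acid. Fabp1, the cytosolic carrier of liver and intestine, was dim: its first probe (chr4:104415250-104415919) had Cy5 signals of 148.9, 86.9, 155.1, 112.3 and 182.8 units in cafeteria 1, 4, 7, 10 and 13. It had 112.3, 106.4, 114.4 and 142.2 units in control 1, 4, 7 and 13. The log2 ratio was 0.388, -0.026, 0.392, -0.094 and 0.214 in these cafeteria animals and 0.069, 0.011, 0.056 and 0.105 in these controls. Cafeteria 1, 7 and 13 lay above all controls and cafeteria 4 and 10 below them.

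The difference was 0.115 (SE 0.11), and with plain background subtraction it was 0.003 (SE 0.17). The second Fabp1 probe (chr4:104413796-104413855), well above background on 2 cafeteria and 2 control arrays, differed by 0.027 (SE 0.056). On cafeteria 1 the probes were 0.40 apart, so the higher value there was seen on the first probe alone.

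Fabp4, the carrier of adipocytes and macrophages, was well above background on all 5 cafeteria arrays and on 3 of the 4 control arrays. Its probe (chr2:93536175-93538589) had Cy5 signals of 106.9, 87.0, 129.8, 112.5 and 187.0 units in cafeteria 1, 4, 7, 10 and 13 and 116.7, 94.9, 79.3 and 99.5 units in control 1, 4, 7 and 13. The log2 ratio was 0.109, 0.007, 0.151, 0.028 and 0.239 in these cafeteria animals and 0.010, 0.000, -0.086 and 0.000 in these controls. The groups overlapped by cafeteria 4, one of the arrays on which dim spots were drawn towards 0.

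The difference was 0.126 (SE 0.062). With plain subtraction it was 0.20 (SE 0.094), with cafeteria animals between 0.035 and 0.455 and controls between -0.138 and 0.034. The groups thus barely parted there, with cafeteria 10 at 0.035 and control 4 at 0.034. The 1.27% of all probes without overlap was counted on values with the modelled background, so nothing is read from this. Neither fit called the Fabp4 probe. Of 10 adipocyte markers, 4 passed the filter, 2 higher and 2 lower (median -0.040), Lep, Plin1 and Cidec were not well above background on any array, and the summed signals were 2123 to 7209 units in cafeteria animals and 2337 to 2971 units in controls.

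Fabp5, the epidermal binding protein also found in macrophages, varied most between animals among the 10 genes after Slc27a2. Its probe, which the files leave on unplaced sequence (chrUn:41847300-41847359), was at -0.367, -0.555, -0.918, 0.634 and 0.042 in cafeteria 1, 4, 7, 10 and 13 and at -0.307, -0.248, 0.866 and -0.356 in control 1, 4, 7 and 13. Cafeteria 10 and control 7 were high, and the other arrays lay at or below 0.042. In Cy5 signal these were 4484 units in cafeteria 10 and 4374 units in control 7, against 1353 to 2525 units in the other cafeteria animals and 1838 to 2249 units in the other controls.

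The means were -0.233 ± 0.595 in cafeteria animals (SD, n = 5) and -0.011 ± 0.586 in controls (SD, n = 4), a difference of -0.221 (SE 0.336). Its SDs lay at the 98.7th percentile of all probes in both groups. The sign turned without control 7 and with slide as a fixed block (0.465, SE 0.274), but not with slide as a random block (-0.193, SE 0.332), and within slide 5 cafeteria 10 exceeded control 13 by 0.99. Control 7 and cafeteria 10 were also the highest arrays for Hdc, at 0.535 and 0.243, a gene looked at after its values were seen.

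Dbi, the acyl-CoA binding protein, was bright and similar in both groups. Its first probe (chrUn:57519252-57519311) had Cy5 signals of 18215 to 28168 units in cafeteria animals and 17365 to 24028 units in controls. The log2 ratio was 0.065, -0.265, -0.212, -0.420 and -0.166 in cafeteria 1, 4, 7, 10 and 13 and -0.143, -0.323, 0.130 and -0.175 in control 1, 4, 7 and 13. The groups overlapped along most of their range.

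The differences were -0.072 (SE 0.11) on the first probe and -0.058 (SE 0.11) on the second (chrUn:57511818-57516130), and the first probe read lower than the second on every array, by 0.101 to 0.33.

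Over the whole set, 15 probes of all 10 genes passed the filter, and 12 of the 16 were well above background on all 9 arrays. None of the 15 was called by limma at an adjusted p under 0.05, where 0.00775% of all probes tested were called (2 of 25805). At an unadjusted p under 0.05 there were 2, both Slc27a2, beside 4.40% of all probes. The groups did not overlap for the same 2 probes, beside 1.27% of all probes in either direction and 0.453% with all cafeteria animals above all controls. As the difference between the diets chose the genes, nothing is read from these shares.

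The difference was above 0 for 11 of the 15 probes and below 0 for 4, with a median of 0.105. Leaving Slc27a2 out, it was above 0 for 9 of 13, from -0.221 to 0.234 with a median of 0.101. Over all probes it was above 0 for 54.3%, with a median of 0.009.

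**Figure D5:**
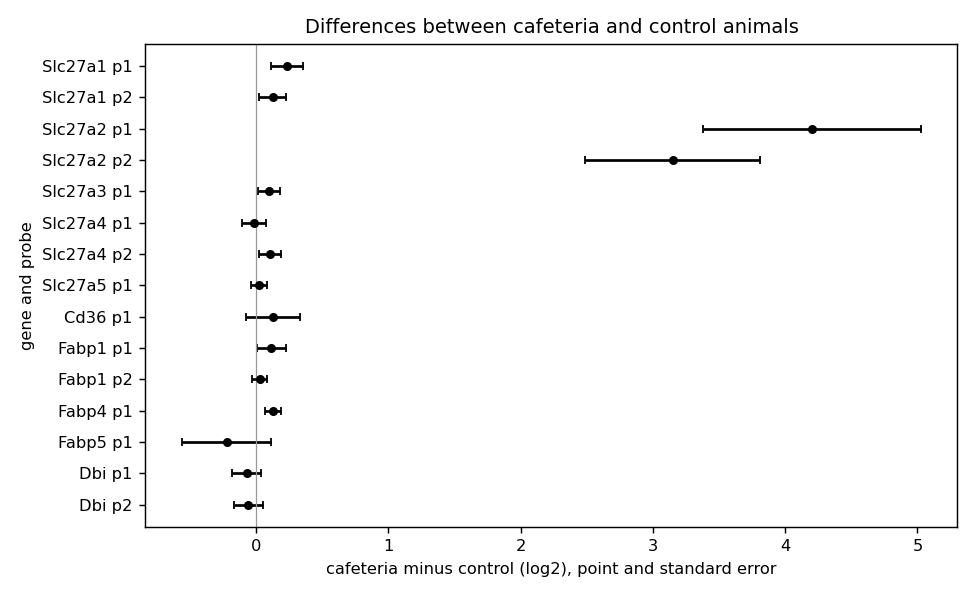
Cafeteria minus control difference (log2, point and standard error, 5 cafeteria and 4 control arrays) of the 15 tested probes. The Slc27a2 probes lie at 4.20 and 3.15, and the other 13 between -0.221 and 0.234.

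Other genes of fatty acid uptake and activation were examined as a list of 30, of which 27 were on the array and 17 passed the filter. Of these, 9 lay above 0 and 8 below, with a median difference of 0.007, against 0.009 over all probes. The list had 0 genes called by limma and 0 at an unadjusted p under 0.05. The muscle and intestinal binding proteins Fabp3 and Fabp2, with Fabp6, Fabp7, Acsl6, Acsbg2, Crabp1 and the fatty acid receptor Ffar1, were not well above background on any array.

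The genes of that list with the smallest p were Acbd5, a peroxisomal acyl-CoA binding protein, at -0.207 (SE 0.115), and Ffar4, a receptor for long-chain fatty acids, at 0.192 (SE 0.142). They were followed by Got2, a mitochondrial aminotransferase also described as a membrane fatty acid binding protein, at -0.133 (SE 0.118), and Crabp2, a retinoic acid carrier, at -0.066 (SE 0.086). The groups overlapped for all 4.

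Targets of PPARs other than the 10 genes formed a second list of 30, with 29 on the array and 23 tested. It was higher for 19 genes and lower for 4, with a median of 0.082, against 0.009 over all probes. None was called by limma, and 4 had an unadjusted p under 0.05, beside 4.40% of all probes. Cpt1a, which commits fatty acids to mitochondrial oxidation, was at 0.12 ± 0.12 in cafeteria animals (SD, n = 5) and -0.412 ± 0.145 in controls (SD, n = 4), a difference of 0.532 (SE 0.086).

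The others were Slc25a20, the carrier of acylcarnitines into mitochondria, at 0.257 (SE 0.084), Acaa2, a thiolase of mitochondrial oxidation, at 0.325 (SE 0.125), and Angptl4, an inhibitor of lipoprotein lipase, at 0.222 (SE 0.089). Groups did not overlap for Cpt1a, Slc25a20 and Angptl4, beside 1.27% of all probes, and overlapped for Acaa2. For Angptl4 the gap was smaller than the rounding, with cafeteria 13 and control 13 both at 0.002. These 4 differences were below that of either Slc27a2 probe.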

How the data were processed

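Arrays of 9 animals, 1 per animal, were analysed. The deposited scanner files give the intensity of each spot and of its local background in both dyes, read with Feature Extraction 9.5.1.1 per the file headers, on annotation of the rn4 build. The deposited files also hold the software's own log10 ratio, dye-normalized and background-subtracted. A table deposited by the authors gives log2 values per spot, blank for many spots; its scale followed Cy5, and its normalization is not given in the sources used here.

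Background was corrected with normexp (offset 50) and log2 ratios were normalized by loess within arrays. Outlier-flagged spots were left out after these steps. Repeated spots were averaged, and probes with Cy5 well above background on at least 4 arrays were tested with limma 3.58.1 (statmod 1.5.0, R 4.3.3; Python 3.11.15, matplotlib 3.10.9) over all 25805 such probes, with 7 residual and 2.94 prior degrees of freedom and Benjamini-Hochberg adjustment. The procedure was tested on simulated data. Levels of different probes were not compared, and each listed gene was represented by the probe with the brightest mean Cy5.

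Arrays give no counts, and their number limits the precision. P-values measure the spread between these animals. A RefSeq list (GRCr8) named 19443 probes (47.4%), and 81 name matches were dropped because the chromosome differed.

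The genes, lists and tests were chosen with earlier results of these data known. Named were every member and probe, up to 4 genes per pathway list with the smallest p, and neighbours within 500 kb. The 8 genes most like Slc27a2 among named probes with a range of at least 2 were named too. Alternatives covered background correction, normalization, filter, slide, replicate block and single arrays left out; plain subtraction (offset 50) and the settings without cafeteria 4 and control 4 were added after the data were seen.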

Additional observations from a re-analysis of the deposited data

Results flagged for a closer look

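In each group, the highest or lowest array was compared with the rest by Dixon's ratio of gap to range, with 95% critical values of 0.829 for 4 arrays and 0.71 for 5. Over the 32 groups examined (16 probes in 2 diets), 4 arrays exceeded it, and chance alone marks about 5% of groups. The ratios used the values with the modelled background, which draws dim spots on cafeteria 4 and control 4 towards 0. Which arrays are marked can therefore depend on that correction. Control 1 was at -0.316 on the first Slc27a2 probe, while the other controls lay between -4.848 and -4.142. Fabp5 in control 7 was at 0.866, above the other controls at -0.356 to -0.248. Slc27a3 in cafeteria 10 was at 0.236, above the other cafeteria animals at -0.068 to 0.002. Fabp4 in control 7 was at -0.086, below the other controls, which ran up to 0.01, and its signal there was 79.3 units over a local background of 58.0. With plain subtraction Fabp4 was at -0.138 in control 7 and at -0.001 to 0.034 in the other controls. Slc27a3 was then at 0.274 in cafeteria 10 and at -0.073 to 0.029 in the other cafeteria animals. The second Slc27a2 probe, not among the 4, was then at -0.101 in control 1 and at -4.637 to -4.126 in the other controls. Slc27a5 had a second probe outside the fit that was well above background on 1 cafeteria array, cafeteria 4 (91.2 units), and on 0 control arrays.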

How the results depend on the processing

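Both Slc27a2 probes stayed higher in cafeteria animals in every setting run, a sign fixed by groups that do not overlap. Leaving out 1 array at a time moved the first probe between 3.756 and 5.267 and the second between 2.658 and 3.885, with control 1 deciding the upper end. Without control 1 and with plain background subtraction they were 5.99 and 5.198, and within slide 3 they were 1.281 and 1.195. The second probe came to 4.743 on the software's log ratio, to 4.469 on values of the authors' table, and to 4.347 once that table was centred. The replicate numbers in the labels are shared between the diets. After each probe's group mean was subtracted, the deviations of same-numbered arrays correlated at -0.048, 0.112, 0.099 and -0.145. In these deviations 0 of 4 pairs were best with their own number. Whether same-numbered arrays shared any handling was not tested. Cafeteria 4 and control 4 were the 2 arrays with a high fitted background SD in Cy5 (946 and 997 units). With the replicate block the Slc27a2 probes were 4.347 and 3.258, with 0 probes called.

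Over the whole array limma called 2 probes. It called 0 with no background correction, plain subtraction, the software's log ratio, median centring, Cy5 alone, the authors' table as given or centred, slide as a fixed block, the replicate block, or without cafeteria 4 and control 4, and 0 to 2 when 1 array was left out. Of the 15 tested probes of the set it called 0. Without control 1 it called 1 of them, beside 1 over the whole array. Without control 1 after plain subtraction it called 2 of them, beside 2 over the whole array. All of these calls were of Slc27a2, the gene chosen for its difference, so nothing is read from them. The differences of Slc27a1 probe 1, Slc27a4 probe 2 and Fabp4 kept their sign in all settings run; that of Cd36 turned within slide 3 and with slide as a fixed block (-0.034; 0.122 as a random block) and came to 0.0 without cafeteria 10 and with the replicate block. The authors' table was blank for Slc27a3, Slc27a5, Fabp1 and Fabp4, which are dim, and signal over background limits them: cafeteria 4 and control 4 carry little information on them.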
